A study of Mus musculus with 18 samples.

Results

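The 36 genes described here encode the machinery that copies nuclear DNA and the enzymes that supply its nucleotides. They were chosen as a fixed list of symbols, with earlier results of these data known. Their counts beside those of all genes are therefore descriptions, and no test of the genes as a set was made. Each gene is represented by the probe set that carries its symbol alone and has the highest mean signal over the 18 arrays. Such a probe set was found for 35 of the 36, among 18193 genes so represented, and Chaf1a was not analysed here. A filter on low signals kept genes whose probe set exceeded the 40th percentile of its array in 3 or more mice. It was passed by 31 of the 35, and by 13434 genes in all. Cdc6, Tyms, Uhrf1 and Ccne2 did not, and their values near the background are given without a test. Of the 31, 27 lay above that limit on all 18 arrays, while Tk1 and Chaf1b did so on 17, Gins2 on 15 and Pole on 7.

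Right lung lobes came from female mice of the B6C3F1 hybrid strain, aged 18 weeks after 13 weeks of dosing. Each of the 6 groups held 3 mice, with 1 mouse on each Affymetrix whole-genome mouse array. The feed controls (animals 27, 28 and 29) ate rodent chow, and 3 groups had a chemical in their diet 7 days a week. These received 1,5-naphthalenediamine at 2000 ppm (NDA, animals 2, 4 and 5), N-(1-naphthyl)ethylenediamine dihydrochloride at 2000 ppm (NEDD, animals 12, 14 and 15) or pentachloronitrobenzene at 8187 ppm (PCNB, animals 16, 18 and 20). Gavage on 5 days a week gave the corn oil controls (animals 22, 24 and 25) the vehicle alone at 5 ml/kg, and gave the benzofuran group (animals 6, 8 and 10) 2,3-benzofuran at 240 mg/kg in the same volume of corn oil. The labels class NDA and benzofuran as positive and NEDD and PCNB as negative lung carcinogens, and the series concerns expression markers that foretell lung tumours. Values below are log2 signals as deposited, given within a group in the order of the animal numbers just listed.

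Before a cell copies its DNA, the origin recognition complex with Cdc6 and Cdt1 loads rings of Mcm2 to Mcm7 onto chromatin, a step called licensing that geminin (Gmnn) blocks once replication has begun. Cyclin E with its kinase, Cdc45 and the GINS proteins then turn the loaded rings into active helicases, polymerases extend the new strands, the sliding clamp Pcna holds them on DNA, and Fen1 and Lig1 join the lagging strand. Most of these genes are transcribed under E2F control as cells pass from G1 into S phase, and the adult lung is a tissue in which few cells divide at any time.

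Promoters of the 4 genes chosen for array-by-array values in the helicase and nucleotide supply groups are shown first, because transcription of both groups is known to respond to E2F. Each line gives the 200 bases before the RefSeq transcript start in the gene's sense direction (assembly GRCm38.p6), with motif matches in capitals. The motifs searched on both strands were the E2F-type cores TTCCCGC, with the variants TTGGCGC, then TTCGCGC, and also TTGCCGC, the NF-Y-type box CCAAT and the CHR-type element TTTGAA.
Mcm5, chr8:75109309-75109508, plus strand: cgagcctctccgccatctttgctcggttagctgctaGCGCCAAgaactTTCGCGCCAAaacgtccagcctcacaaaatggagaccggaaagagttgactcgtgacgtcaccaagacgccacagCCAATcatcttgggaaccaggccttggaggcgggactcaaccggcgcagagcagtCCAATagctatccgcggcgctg
Mcm6, chr1:128359706-128359905, minus strand: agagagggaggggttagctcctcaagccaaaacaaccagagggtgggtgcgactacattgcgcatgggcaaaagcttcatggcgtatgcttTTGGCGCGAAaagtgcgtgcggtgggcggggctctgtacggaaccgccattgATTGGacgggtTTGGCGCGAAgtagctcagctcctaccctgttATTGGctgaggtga
Rrm2, chr12:24708054-24708253, plus strand: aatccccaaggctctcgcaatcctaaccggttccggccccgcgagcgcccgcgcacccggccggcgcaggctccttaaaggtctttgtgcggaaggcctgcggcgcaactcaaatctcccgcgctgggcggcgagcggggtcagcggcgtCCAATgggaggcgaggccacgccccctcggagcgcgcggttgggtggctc
Tk1, chr11:117826015-117826214, minus strand: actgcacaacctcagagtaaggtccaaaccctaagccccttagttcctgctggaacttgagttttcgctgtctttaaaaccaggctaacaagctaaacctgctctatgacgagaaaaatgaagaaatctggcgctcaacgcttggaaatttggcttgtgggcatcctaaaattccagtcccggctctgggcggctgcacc
The Mcm5 window held 3 E2F-type and 2 CCAAT matches, and the Mcm6 window 4 and 2. E2F-type matches overlapped in pairs within both windows. Rrm2 had 1 CCAAT box and no E2F-type core, and Tk1 had none of the motifs in this window. RefSeq windows were at hand for 30 of the 36 genes, and an E2F-type core was present in 12 of the 30 (40%), against 7.77% of all 27025 genes with a window. CCAAT was present in 16 of the 30 (53.3%, all genes 32.7%) and the CHR-type element in 2 (6.67%, all genes 14.4%). A match describes letters only and is no measured binding site.

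Across the series the array medians lay between 5.68 and 5.80, and all 7 alveolar type 2 markers tested were measured in every group, with a summed linear signal of 61844 to 72649 per array. The actin control probe sets, whose 3′ minus 5′ difference grows with RNA breakdown, gave 0.33 to 0.73 on 17 arrays and 0.91 on the array of benzofuran animal 10. The RNA integrity number of that animal, 8.9, lay within the 8.3 to 9.4 of the others that have one, and its OD ratio, 1.8, was at the low end of 1.8 to 2.87. That array also stood apart on the first principal component of all tested genes, at 46.6 against -11.8 to 7.80 for the others. It had the highest signal of the 18 arrays for 14 of the 31 replication genes and for 35.3% of all genes tested. Several results that rest on it are given with and without it, and its part in the benzofuran group's values is set out with that comparison. In whole-lobe RNA, fewer cells of a type and less RNA per cell cannot be told apart.

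The tested replication genes were on the whole lowest in the feed controls and highest in the corn oil controls. The feed controls had the lowest of the 6 group means for 15 of 31 genes (12.7% of all genes tested) and the highest for 0 (13.7%). The corn oil controls had the highest for 13 (11.3%) and the lowest for 0 (17.3%). Benzofuran had the highest mean for 11 (35.1%) and, with animal 10 left out, for 4 (22.9%). The mean over the 31 genes of the signal minus each gene's own mean ran from -0.13 to -0.10 on the feed control arrays, from 0.03 to 0.16 on the corn oil arrays, from -0.04 to 0.13 for NDA, from -0.05 to 0.06 for NEDD and from -0.11 to -0.04 for PCNB. It was -0.02, -0.09 and 0.33 for benzofuran animals 6, 8 and 10.

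**Figure D1:**
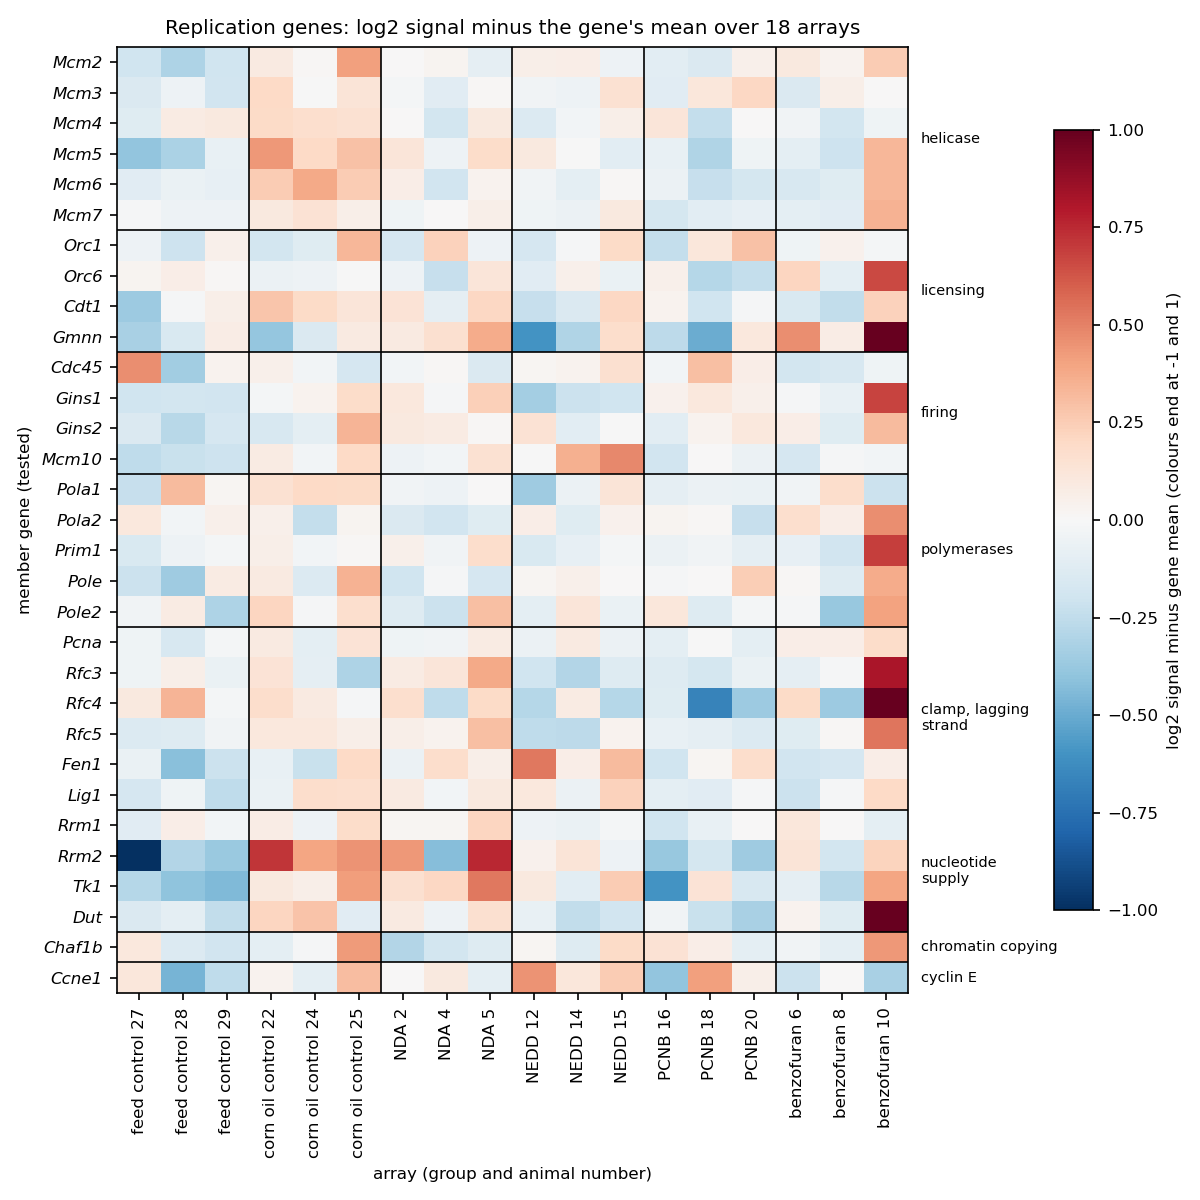
Log2 signal of the 31 tested replication genes (rows, by role) on each of the 18 arrays (columns, by group and animal), minus the gene's mean over all arrays, with colours ending at -1 and 1. The feed control columns are mostly blue, the corn oil control columns mostly red, and benzofuran 10 is the highest of all 18 arrays for 14 genes.

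Rrm2, the regulated small subunit of ribonucleotide reductase that makes deoxyribonucleotides, had the widest range of group means. Its log2 signal was 5.34, 6.09 and 6.01 in the feed controls, 7.09, 6.77 and 6.82 in the corn oil controls, 6.81, 5.95 and 7.13 in NDA, 6.42, 6.51 and 6.33 in NEDD, 6.00, 6.20 and 6.02 in PCNB and 6.51, 6.19 and 6.60 in benzofuran. All corn oil arrays were above all feed arrays, NDA animal 4 lay among the feed controls, and the NEDD, PCNB and benzofuran arrays fell between the 2 control means. Tk1, cytosolic thymidine kinase of the salvage pathway, stood at 5.21, 5.09 and 5.05 in the feed controls, 5.59, 5.55 and 5.91 in the corn oil controls, 5.65, 5.70 and 6.02 in NDA, 5.59, 5.39 and 5.75 in NEDD, 4.89, 5.63 and 5.33 in PCNB and 5.41, 5.22 and 5.89 in benzofuran. Every corn oil, NDA and NEDD array was above every feed array for Tk1, whereas PCNB spanned the feed values. Dut, which removes dUTP, ranged from 6.15 to 6.76 on 17 arrays and reached 7.56 on benzofuran 10. Rrm1, the large reductase subunit, spanned only 7.82 to 8.24.

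Within the helicase, Mcm5 read 7.00, 7.08 and 7.32 in the feed controls, 7.83, 7.59 and 7.68 in the corn oil controls, 7.51, 7.34 and 7.57 in NDA, 7.49, 7.38 and 7.28 in NEDD, 7.31, 7.09 and 7.34 in PCNB and 7.29, 7.19 and 7.73 in benzofuran. The corn oil arrays lay above every array of the feed, NDA, NEDD and PCNB groups, and only benzofuran 10 entered their range. Mcm6 read 8.16, 8.20 and 8.19 in the feed controls, 8.52, 8.65 and 8.52 in the corn oil controls, 8.34, 8.08 and 8.31 in NDA, 8.24, 8.17 and 8.28 in NEDD, 8.22, 8.04 and 8.09 in PCNB and 8.11, 8.15 and 8.60 in benzofuran. The feed control values had an SD of 0.02 (n = 3), all corn oil arrays were above them, and benzofuran 10 alone reached the corn oil values. For the helicase as a group, the mean over its 6 genes of the signal minus each gene's own mean was -0.16 to -0.08 on feed arrays and 0.15 to 0.22 on corn oil arrays. On the other arrays it was -0.15 to 0.05, except 0.20 on benzofuran 10.

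Of the licensing factors, Gmnn had the widest range, with 7.89, 8.06 and 8.29 in the feed controls, 7.83, 8.07 and 8.30 in the corn oil controls, 8.30, 8.37 and 8.58 in NDA, 7.62, 7.91 and 8.39 in NEDD, 7.95, 7.72 and 8.32 in PCNB and 8.68, 8.29 and 9.27 in benzofuran. Both control groups covered the same values, the NDA arrays lay just above them, and benzofuran 10 was the highest. Orc6, the smallest subunit of the origin recognition complex, gave 7.56, 7.60 and 7.55 in the feed controls, 7.48, 7.48 and 7.53 in the corn oil controls, 7.48, 7.30 and 7.65 in NDA, 7.42, 7.58 and 7.47 in NEDD, 7.58, 7.25 and 7.29 in PCNB and 7.75, 7.43 and 8.19 in benzofuran. Its corn oil arrays were all slightly below its feed arrays, and benzofuran 10 was again the highest. Cdt1, the loading factor that geminin binds, ranged from 6.81 to 7.45, and Orc1 from 5.76 to 6.33. Cdc6, the loading ATPase, was not above the filter limit on any array and ranged from 3.87 to 4.84.

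Among the firing factors, Mcm10, which joins the helicase to polymerase alpha, measured 5.05, 5.08 and 5.09 in the feed controls, 5.38, 5.28 and 5.51 in the corn oil controls, 5.25, 5.28 and 5.45 in NDA, 5.30, 5.66 and 5.79 in NEDD, 5.11, 5.31 and 5.25 in PCNB and 5.13, 5.29 and 5.28 in benzofuran. The feed controls were the lowest group, within an SD of 0.02, and NEDD animals 14 and 15 the highest. The feed values lay only a little above the filter limits of their arrays, 5.04, 4.97 and 5.00. Gins1, a GINS subunit of the active helicase, measured 5.22, 5.23 and 5.23 in the feed controls, 5.40, 5.45 and 5.60 in the corn oil controls, 5.52, 5.41 and 5.65 in NDA, 5.07, 5.20 and 5.21 in NEDD, 5.46, 5.52 and 5.47 in PCNB and 5.41, 5.34 and 6.10 in benzofuran. All corn oil, NDA and PCNB arrays, and all benzofuran arrays, were above all feed arrays, while the NEDD arrays were just below them. Cdc45 ranged from 5.33 to 6.14, both ends in the feed controls, and Gins2 from 4.89 to 5.50.

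In the polymerase group, Pola2, the regulatory B subunit of polymerase alpha, had 7.40, 7.27 and 7.35 in the feed controls, 7.35, 7.06 and 7.32 in the corn oil controls, 7.15, 7.10 and 7.18 in NDA, 7.36, 7.17 and 7.34 in NEDD, 7.33, 7.31 and 7.06 in PCNB and 7.46, 7.36 and 7.76 in benzofuran. NDA arrays were all below feed arrays and benzofuran arrays all above corn oil arrays. Pola1, its catalytic subunit, had 6.09, 6.64 and 6.34 in the feed controls, 6.47, 6.52 and 6.51 in the corn oil controls, 6.29, 6.26 and 6.32 in NDA, 5.96, 6.26 and 6.45 in NEDD, 6.23, 6.26 and 6.26 in PCNB and 6.29, 6.49 and 6.10 in benzofuran. The feed controls covered most of the range seen in the other groups. Prim1, the primase, lay between 6.85 and 7.22 on 17 arrays and at 7.73 on benzofuran 10.

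For the clamp and lagging strand, Pcna gave 11.31, 11.19 and 11.33 in the feed controls, 11.45, 11.25 and 11.49 in the corn oil controls, 11.31, 11.31 and 11.43 in NDA, 11.29, 11.45 and 11.29 in NEDD, 11.26, 11.35 and 11.26 in PCNB and 11.42, 11.42 and 11.54 in benzofuran. Group means ran from 11.28 ± 0.07 in feed controls to 11.46 ± 0.07 in benzofuran (SD, n = 3), and the benzofuran arrays overlapped those of corn oil, their own controls. Rfc4, a clamp loader subunit, gave 6.53, 6.77 and 6.41 in the feed controls, 6.61, 6.52 and 6.42 in the corn oil controls, 6.60, 6.18 and 6.62 in NDA, 6.15, 6.51 and 6.14 in NEDD, 6.31, 5.76 and 6.06 in PCNB and 6.62, 6.06 and 7.46 in benzofuran. PCNB was all below feed, and the benzofuran arrays were far apart, with animal 10 the highest of all arrays. Fen1, the flap nuclease, gave 8.72, 8.37 and 8.57 in the feed controls, 8.71, 8.57 and 8.99 in the corn oil controls, 8.73, 8.97 and 8.84 in NDA, 9.32, 8.85 and 9.10 in NEDD, 8.59, 8.80 and 8.96 in PCNB and 8.60, 8.62 and 8.86 in benzofuran, with all NDA and NEDD arrays above all feed arrays.

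Of the chromatin genes, Uhrf1, which carries DNA methylation over to new strands, was under the filter limit on too many arrays to be tested and read 4.12, 4.29 and 3.97 in the feed controls, 4.83, 4.95 and 4.57 in the corn oil controls, 5.07, 4.48 and 5.08 in NDA, 4.66, 4.54 and 4.50 in NEDD, 4.24, 4.28 and 4.06 in PCNB and 4.39, 4.43 and 4.92 in benzofuran. Corn oil, NDA, NEDD and benzofuran arrays were all above the feed arrays, at signals where the background was not told apart. Chaf1b, a subunit of the histone chaperone that follows the fork, read 5.37, 5.13 and 5.07 in the feed controls, 5.17, 5.26 and 5.69 in the corn oil controls, 4.97, 5.08 and 5.13 in NDA, 5.29, 5.14 and 5.45 in NEDD, 5.41, 5.33 and 5.17 in PCNB and 5.23, 5.17 and 5.70 in benzofuran, with every group overlapping the feed controls. Ccne2 was untested and read 3.40, 3.54 and 3.37 in the feed controls, 3.62, 4.23 and 3.80 in the corn oil controls, 3.58, 2.95 and 3.56 in NDA, 3.45, 3.53 and 3.37 in NEDD, 3.23, 3.44 and 3.29 in PCNB and 3.55, 3.29 and 4.07 in benzofuran. Ccne1 ranged from 5.45 to 6.36. Tyms, thymidylate synthase, stayed between 3.53 and 4.18 and was not above the limit on any array.

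**Figure D2:**
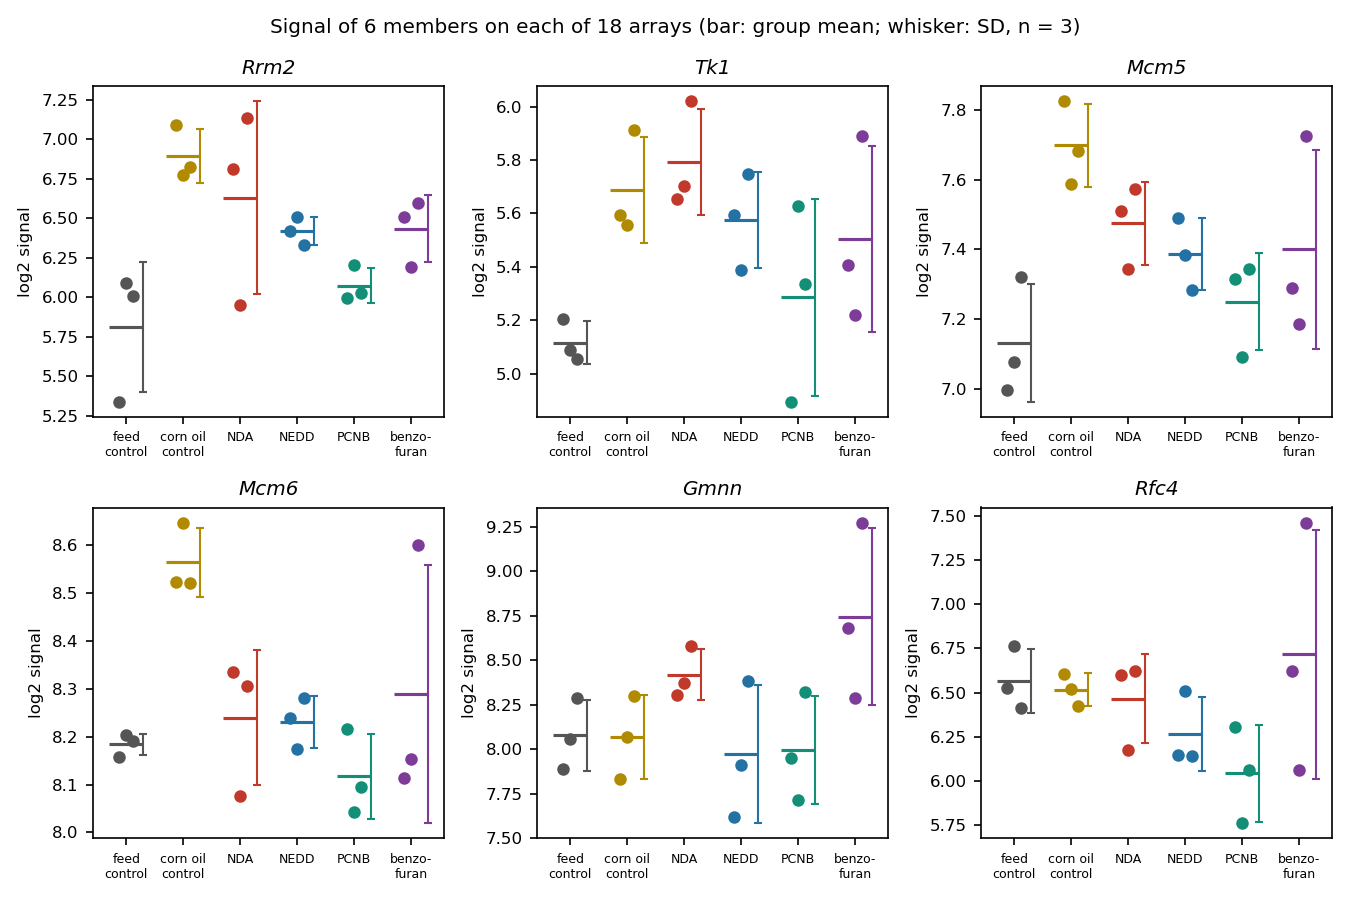
Log2 signal (y axis, each panel on its own scale) of Rrm2, Tk1, Mcm5, Mcm6, Gmnn and Rfc4 on each array by group, with the group mean as a bar and the SD (n = 3) as a whisker. Rrm2, Tk1, Mcm5 and Mcm6 separate the corn oil from the feed controls, while Gmnn does not and Rfc4 is spread by benzofuran 10.

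The corn oil controls were compared with the feed controls, groups that differ in gavage, oil and days of handling, which cannot be told apart here. The tested replication genes lay mostly higher in corn oil, with the largest differences for Rrm2, Tk1 and Mcm5. Rrm2 averaged 6.90 ± 0.17 in corn oil against 5.81 ± 0.41 in feed (log2, SD, n = 3), a log2 difference of 1.08 ± 0.23 (SE) or 2.12-fold. The helicase differences were 0.57 ± 0.13 for Mcm5, 0.40 ± 0.11 for Mcm2, 0.38 ± 0.12 for Mcm6, 0.24 ± 0.10 for Mcm3, 0.15 for Mcm4 and 0.14 for Mcm7, and for all 6 every corn oil array lay above every feed array. Tk1 differed by 0.57 ± 0.18, Mcm10 by 0.31 ± 0.12 and the licensing factor Cdt1 by 0.30 ± 0.15, also without overlap. The most negative value was -0.10 ± 0.15 for Cdc45, with overlapping arrays, and leaving out feed control 27 made it 0.11, leaving out 28 made it -0.30, and its other probe set gave 0.15.

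None of these differences passed the test. With limma and Benjamini-Hochberg adjustment over 13434 genes, 0 of 31 were called at an adjusted p under 0.05, as were 0% of all genes tested. The smallest adjusted p among the 31 was 0.672, for Rrm2, and at an unadjusted p under 0.05 there were 8 of 31 and 271 of all 13434. The difference was positive for 25 of 31 (41.7% of all genes), with a median of 0.20 against -0.02 over all genes. Arrays did not overlap for 12 on the higher side (2.32% of all genes) and for 1, Orc6, on the lower side (4.91%). Beside this, the summed linear signal of 6 fibroblast markers was 12579 to 13094 in corn oil against 10240 to 11927 in feed, and that of 4 neutrophil markers was 4835 to 6171 against 6775 to 8315. The other 17 marker lists overlapped between these groups, and the part of cell makeup in the differences was not tested. Among markers of cells that divide often, the filter passed 0 of 5 for myeloid progenitors, 4 of 8 for thymocytes (Cd8b1, Themis, Cd4 and Cd8a, but not Rag1, Rag2, Ptcra or Dntt) and 2 of 5 for germinal centre B cells (S1pr2 and Bcl6).

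Other probe sets of the same genes were measured apart from those chosen. Of 21 further probe sets that passed the filter, 20 had the same sign as the chosen one in corn oil minus feed, 19 in NEDD minus feed and 18 in benzofuran minus corn oil. The count was 14 in NDA minus feed, 13 in NDA minus NEDD and 12 in PCNB minus feed. For Rrm2 they gave, in corn oil minus feed, 0.35 and 0.84 beside 1.08, for Mcm2 0.56 beside 0.40 and for Mcm5 0.46 beside 0.57. With the mean over all its probe sets, the Rrm2 difference was 0.76.

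**Figure D3:**
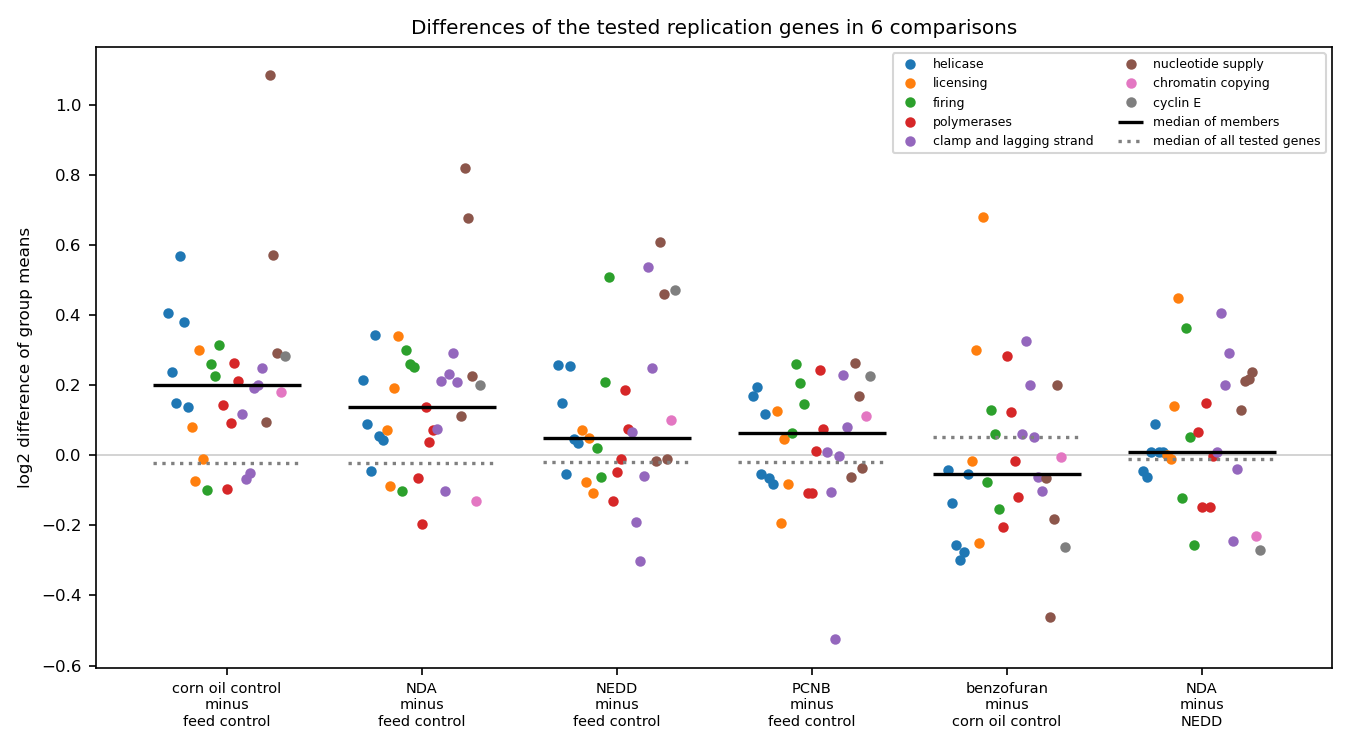
Log2 difference of group means (y axis) for each of the 31 tested replication genes in 6 comparisons, coloured by role, with the median of the 31 (black line) and of all 13434 tested genes (dotted grey line). The median is 0.20 for corn oil minus feed control, 0.14 for NDA, 0.05 for NEDD and 0.06 for PCNB minus feed control, and -0.05 for benzofuran minus corn oil control.

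NDA was compared with the feed controls, the same arrays that serve NEDD and PCNB. Rrm2 and Tk1 had the largest differences, with Dut at 0.23 and Rrm1 at 0.11. Tk1 averaged 5.79 ± 0.20 against 5.12 ± 0.08 (SD, n = 3), a difference of 0.68 ± 0.18 (SE, adjusted p = 0.09 in limma). Rrm2 differed by 0.82 ± 0.23 (limma adjusted p = 0.112), with NDA animal 4 among the feed values. Its other probe sets gave 0.34 and 0.40, and the mean over all its probe sets 0.52. Without animal 4 the chosen probe set differed by 1.16 (limma adjusted p = 0.0027). Rrm2 was the only replication gene then called, beside 137 of all genes. Mcm5 differed by 0.34 ± 0.13, and Gins1 by 0.30 ± 0.14, Fen1 by 0.29 ± 0.14, Gins2 by 0.26 ± 0.13, Mcm10 by 0.25 ± 0.12, and both Mcm2 and the DNA ligase Lig1 by 0.21 ± 0.11, each without overlap. Other probe sets that passed the filter gave 0.24 for Mcm5, 0.09 for Fen1, 0.30 for Gins2 and 0.13 for Mcm2. With the mean over all its probe sets, among them a probe set under the filter, Mcm5 differed by 0.11. On the other side Pola2 stood at -0.19 ± 0.11, also without overlap, and at -0.03 with the mean of its probe sets, the others of which did not pass the filter.

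In that comparison limma called 0 of 31, beside 184 of 13434 genes (1.37%), and 4 of 31 and 1382 of all had an unadjusted p under 0.05. The difference was positive for 24 of 31 (44.1% of all genes), with a median of 0.14 against -0.02. Of 21 further probe sets that passed the filter, 7 turned the direction. Those of Mcm7 gave -0.05, -0.12 and -0.04, that of Prim1 gave -0.11 and those of Mcm3 gave -0.02 and -0.07, beside 0.03. The other probe set of Cdc45 turned positive, at 0.17. Arrays did not overlap for 12 on the higher side (9.48% of all) and 1 on the lower (11.6%). Without benzofuran 10, which enters the pooled spread, Tk1 passed with an adjusted p of 0.0332, beside 311 of all genes. The summed linear signal of 6 plasma cell markers, 5 of them tested, was 14331 to 26371 in NDA against 4859 to 5832 in feed, that of 7 ciliated cell markers 5074 to 5470 against 3720 to 4520, and that of 4 erythroid markers, of which only Alas2 passed the filter, 2411 to 3441 against 1296 to 1829. Summed signals for NK cells, neutrophils, alveolar type 1, club and endothelial cells were lower without overlap. Of the 5 club markers 3 were lower and 2 higher, among them Upk3a at 6.63 against 5.23. The mean over these 5 of the signal minus each marker's own mean was higher, 0.13 to 0.24 in NDA against -0.11 to -0.04 in feed. The 3′ minus 5′ value of actin ran from 0.33 to 0.43 in NDA and from 0.58 to 0.73 in feed, and with it as a covariate 4 replication genes were called (Gins1, Rfc5, Tk1 and Dut) beside 364 of all genes. The part of cell makeup was not tested.

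NEDD, the other naphthylamine, was set against the same feed controls. The 3′ minus 5′ value of actin ran from 0.35 to 0.53 in NEDD and from 0.58 to 0.73 in feed. With it as a covariate the median difference of the 31 genes was 0.17, beside 0.05 without it. Rrm2, Fen1 and Mcm10 had the largest differences, while the nucleotide genes Rrm1 and Dut lay at -0.02 and -0.01. Mcm10 averaged 5.58 ± 0.25 against 5.08 ± 0.02 (SD, n = 3), a difference of 0.51 ± 0.12 (SE, limma adjusted p = 0.323). Its feed values lay near the filter limit, and its other probe sets, which did not pass the filter, gave 0.14 and 0.13. Fen1 differed by 0.54 ± 0.14 (limma adjusted p = 0.33), Rrm2 by 0.61 ± 0.23 (adjusted p = 0.494) and Tk1 by 0.46 ± 0.18 (adjusted p = 0.494), all without overlap. The other probe sets of Rrm2 gave 0.16 and 0.30, and that of Fen1 gave 0.26. Mcm2 at 0.26 ± 0.11, Gins2 at 0.21 ± 0.13 and Mcm3 at 0.15 ± 0.10 also did not overlap with feed. The other probe set of Mcm2 gave 0.09, that of Gins2 0.50 and those of Mcm3 that passed the filter 0.04, 0.26 and 0.08. Rfc4 had the most negative value, -0.30 ± 0.24 with overlap, and Rfc3, a further clamp loader subunit, -0.19 ± 0.18 without it. Gins1 was the other gene whose NEDD arrays all lay lower, at -0.06. Limma called 0 of 31 and 3 of 13434 genes (0.0223%), and an unadjusted p under 0.05 was reached by 7 of 31 and 1268 of all. The difference was positive for 19 of 31 (45.8% of all genes), with a median of 0.05 against -0.02, and arrays did not overlap for 7 on the higher side (7.23%) and 2 on the lower (12.1%). By summed linear signal, marker lists for thymocytes, erythroid and alveolar type 1 cells were higher and those for NK cells and neutrophils lower, without overlap. Only Alas2 of 4 erythroid markers passed the filter, and only Cd8b1, Themis, Cd4 and Cd8a of 8 thymocyte markers. Of the 6 alveolar type 1 markers 4 were higher and 2, Pdpn and Rtkn2, lower. The part of these cells was not tested.

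NDA and NEDD, both at 2000 ppm for 13 weeks, were then compared directly, as the 1 pair of related compounds at a matched dose. Both carry a naphthalene ring system, NDA with an amino group on each of its rings and NEDD with an aminoethylamino side chain. Gins1 stood 0.36 ± 0.14 (SE) higher in NDA, Rfc3 0.40 ± 0.18 and Rfc5, another clamp loader subunit, 0.29 ± 0.14, all without overlap between arrays but with adjusted p-values of 0.287, 0.344 and 0.397 in limma. Rrm1 (0.13), Dut (0.24) on the higher side, and Chaf1b (-0.23), Ccne1 (-0.27), Pole (-0.15) and Cdc45 (-0.12) on the lower side did not overlap either. Gmnn had the largest value, 0.45 ± 0.23, with overlap.

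Limma called 0 of 31 between NDA and NEDD, beside 285 of 13434 genes (2.12%), with an unadjusted p under 0.05 for 4 of 31 and 1639 of all. In the fit without benzofuran 10, Gins1 and Rfc3 were called, 2 of 31 beside 584 of all genes. Arrays did not overlap for 5 on the higher side (13.2%) and 4 on the lower (10.8%), and 19 of 31 differences were positive (47.1% of all genes). For genes that were not called, the 95% intervals of the log2 difference show what the arrays allow. The interval was -0.28 to 0.70 around 0.21 for Rrm2, -0.17 to 0.60 around 0.22 for Tk1, -0.19 to 0.37 around 0.09 for Mcm5, -0.23 to 0.25 around 0.01 for Mcm6 and -0.18 to 0.20 around 0.01 for Pcna. The estimated differences between the 2 control groups, none of them called, lie outside these intervals for Rrm2, Mcm5 and Mcm6, but inside for Tk1 and Pcna. Their own 95% intervals begin at 0.60, 0.29 and 0.14 for Rrm2, Mcm5 and Mcm6, which is inside the NDA minus NEDD intervals. The other Rrm2 probe sets gave 0.35 and 0.84 between the controls. The NDA minus NEDD value of Rrm2 rests on NDA animal 4, without which it was 0.55. By summed signal, plasma, ciliated and B cell marker lists were higher in NDA and 5 lists lower, without overlap. The club cell list was 1 of these 5, with 3 markers lower and 2 higher. Its mean signal minus each marker's own mean was higher, 0.13 to 0.24 in NDA against -0.14 to -0.02 in NEDD. The part of these cells was not tested.

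PCNB arrays lay close to the feed controls. Rfc4 had the largest difference, -0.53 ± 0.24 (SE), from 6.04 ± 0.27 against 6.57 ± 0.18 (SD, n = 3), without overlap. Gins1 at 0.26 ± 0.14, Gins2 at 0.21 ± 0.13, Mcm2 at 0.17 ± 0.11 and Mcm10 at 0.15 ± 0.12 were higher without overlap, and Mcm7 at -0.08 ± 0.11 lower. The other probe set of Mcm2 gave -0.15, turning its direction, and that of Gins2 gave 0.03. Rrm2 differed by 0.26 ± 0.23, with overlap, while its other probe sets gave -0.03 and -0.18, turning its direction too. Every adjusted p in limma was 1, 0 of 31 and 2 of 13434 genes (0.0149%) were called, and 1 of 31 and 399 of all had an unadjusted p under 0.05. The difference was positive for 19 of 31 (43.6% of all), with a median of 0.06 against -0.02, and arrays did not overlap for 4 higher (3.67%) and 2 lower (4.87%). The NK cell marker list, at 1724 to 1796 against 1194 to 1579 in summed linear signal, was the only list without overlap, and its part was not tested.

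Benzofuran was compared with the corn oil controls, and the values turned on the array of animal 10. Rrm2 averaged 6.43 ± 0.21 against 6.90 ± 0.17 (SD, n = 3), a difference of -0.46 ± 0.23 (SE, limma adjusted p = 0.284) without overlap. Its other probe sets gave -0.23 and -0.37. All 6 helicase genes had negative values, from -0.30 ± 0.13 for Mcm5 and -0.27 ± 0.12 for Mcm6 to -0.04 for Mcm2, and only Mcm4, at -0.26 ± 0.11, did not overlap. Gmnn, the licensing inhibitor, was the largest positive value at 0.68 ± 0.23 (adjusted p = 0.119), and Pola2 at 0.28 ± 0.11 (adjusted p = 0.184) was higher without overlap, though at 0.02 with the mean of its probe sets. Without animal 8 instead, Gmnn reached 0.91 with an adjusted p of 0.0253, and Orc6 was called with it, in a fit that called 1054 of 13434 genes.

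Limma called 0 of 31 and 233 of 13434 genes (1.73%), with an unadjusted p under 0.05 for 5 of 31 and 2620 of all. The difference was negative for 20 of 31 (39.8% of all genes), with a median of -0.05 against 0.05, and arrays did not overlap for 1 higher (13.1%) and 2 lower (4.32%). Animal 10 was above animals 6 and 8 for 24 of 31 (57.4% of all genes). Without it the differences were negative for 26 of 31 (44.5% of all), 6 genes changed sign and the median became -0.15, against 0.02 over all genes. Limma then called 67 genes (0.499%) and again 0 of the 31, with Mcm6 at -0.43 (adjusted p = 0.0504), Mcm5 at -0.46 (adjusted p = 0.103), Rrm2 at -0.54, Cdt1 at -0.40 and Tk1 at -0.38.

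Leaving out animal 10 moved genes of several roles. Dut went from 0.20 to -0.18 when it was left out, Rfc4 from 0.20 to -0.17, Rfc3 from 0.32 to 0.04 and Prim1 from 0.12 to -0.15. Gmnn went from 0.68 to 0.41, Gins1 from 0.13 to -0.11, Orc6 from 0.30 to 0.10 and Pola2 from 0.28 to 0.17. The helicase genes stayed negative with and without it. The median SD between arrays over the 31 genes was 0.25 in benzofuran against 0.09 in the feed controls (0.185 and 0.127 over all genes). Ciliated cell markers summed to 5141 to 6217 in benzofuran against 3689 to 4783 in corn oil, fibroblast markers to 7182 to 10585 against 12579 to 13094 and neutrophil markers to 2763 to 4834 against 4835 to 6171. The part of these cells and of the RNA quality of animal 10 was not tested.

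**Figure D4:**
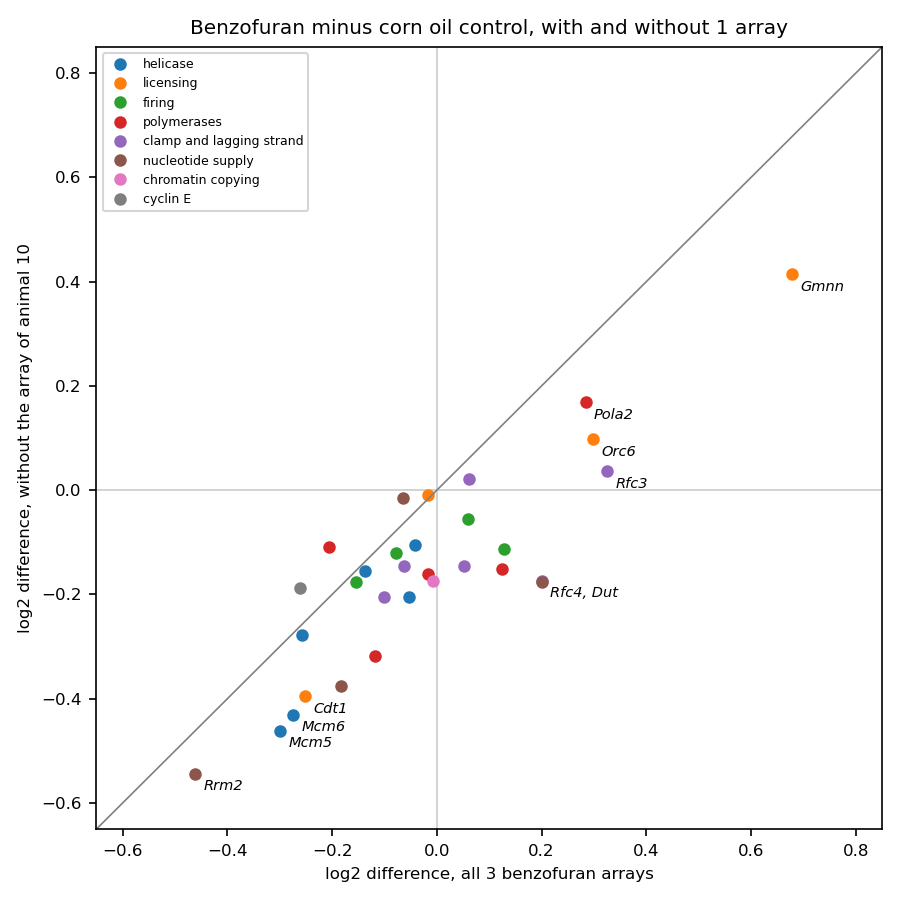
Log2 difference of benzofuran minus corn oil control for the 31 tested replication genes with all 3 benzofuran arrays (x axis) and without the array of animal 10 (y axis), coloured by role, with the line of equality. Most points lie below the line, Dut and Rfc4 coincide at 0.20 and -0.18 or -0.17, and 26 of 31 genes are negative without that array against 20 with it.

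The effects of the positive chemicals were set against each other, each against its own control, so that the distance between the controls enters the contrast. Rrm2 had the largest value, an NDA effect minus benzofuran effect of 1.28 ± 0.33 (SE, limma adjusted p = 0.19), from effects of 0.82 and -0.46. Its other probe sets gave 0.57 and 0.77, and the mean over all its probe sets 0.87. Tk1 differed by 0.86 ± 0.26 (adjusted p = 0.32), Mcm5 by 0.64 ± 0.19 (adjusted p = 0.3) and Pola2 by -0.48 ± 0.16 (adjusted p = 0.381), or -0.06 with the mean of its probe sets. Limma called 0 of 31 and 39 of 13434 genes (0.29%), and an unadjusted p under 0.05 was reached by 6 of 31 and 1255 of all. The value was positive for 24 of 31 (36.8% of all), with a median of 0.18 against -0.07. Without benzofuran 10 the median was 0.29 and Mcm5, at 0.81, was called beside 61 of all genes. Rrm2 then stood at 1.36, Tk1 at 1.05 and Pola2 at -0.36, none of them called. Without NDA 4 Rrm2, at 1.62, was called (adjusted p = 0.00628) beside 41 of all genes.

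Other genes of the same pathways, from lists of further replication proteins, further nucleotide enzymes, G1/S control and mitosis, were measured beside them. Of the further replication genes, 36 of 42 were tested and 0 were called in any comparison. For corn oil minus feed 19 of 36 were positive (41.7% of all genes) and 17 negative, with a median of 0.01. Asf1b, a histone chaperone, had the smallest p there, at 0.42 ± 0.16 (SE), followed by the fork protein Wdhd1 at 0.27 ± 0.14 and Orc5 at -0.27 ± 0.14, each with an adjusted p of 1 in limma. The median of the 31 genes in that comparison was 0.20.

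Of 18 tested of 21 further nucleotide enzymes, 1 was called in benzofuran minus corn oil, beside 233 of 13434 genes (1.73%). Mthfd1, a folate enzyme that supplies carbon units for purine and thymidylate synthesis, had 10.46, 10.55 and 10.38 in the feed controls, 10.05, 10.09 and 10.12 in the corn oil controls, 10.68, 10.63 and 10.47 in NDA, 10.45, 10.26 and 10.28 in NEDD, 10.59, 10.60 and 10.51 in PCNB and 11.17, 10.89 and 10.89 in benzofuran. All benzofuran arrays were above all other arrays and all corn oil arrays below them. It was higher by 0.90 ± 0.10 in benzofuran (limma adjusted p = 8.45e-05), and by 0.95 without animal 10 (adjusted p = 0.000175). For corn oil minus feed, Mthfd1 stood at -0.38 ± 0.10, the mitochondrial thymidine kinase Tk2 at -0.27 ± 0.15 and the CTP synthase Ctps at 0.17 ± 0.10, with adjusted p-values of 1.

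Of 26 tested of 28 G1/S control genes, Cdk6, a cyclin D partner kinase, was called lower in benzofuran at -0.71 ± 0.14 (limma adjusted p = 0.0147), and at -0.52 without animal 10 (adjusted p = 0.0479). For corn oil minus feed the smallest p belonged to Ccna2, the S-phase cyclin A, at 0.67 ± 0.18, the kinase inhibitor Cdkn1c at -0.25 ± 0.09 and Ccnd1, cyclin D, which stood at 0.24 ± 0.10, all with an adjusted p of 1.

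The mitosis genes, 19 tested of 25, were all positive in corn oil minus feed (41.7% of all genes). Their median was 0.63 beside 0.20 for the replication genes, and 0 were called, as were 0% of all genes. Cep55, a protein of cell abscission, stood at 1.17 ± 0.21, the spindle midzone protein Racgap1 at 0.55 ± 0.10 (both adjusted p = 0.247 in limma) and the proliferation marker Mki67 at 1.03 ± 0.22 (adjusted p = 0.672). Racgap1 rose by 0.54 ± 0.10 in NDA against feed (adjusted p = 0.00578), and its values were 5.70, 5.96 and 5.84 in the feed controls, 6.32, 6.39 and 6.44 in the corn oil controls, 6.34, 6.30 and 6.48 in NDA, 6.36, 6.26 and 6.38 in NEDD, 5.95, 5.97 and 6.07 in PCNB and 6.26, 5.98 and 6.27 in benzofuran. All corn oil, NDA and NEDD arrays were above all feed arrays. Mki67 fell by 0.96 ± 0.22 on the log2 scale in benzofuran against corn oil (adjusted p = 0.0302), with 6.52, 7.24 and 7.00 in the feed controls, 8.14, 7.92 and 7.79 in the corn oil controls, 7.81, 7.04 and 7.97 in NDA, 7.39, 7.42 and 7.55 in NEDD, 6.74, 7.36 and 6.77 in PCNB and 7.02, 6.98 and 6.98 in benzofuran. Without animal 10 its difference was -0.95 with an adjusted p of 0.106, and all 3 benzofuran arrays lay below all corn oil arrays.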

How the data were processed

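Total RNA of 18 right lung lobes was biotin-labelled and hybridised 1 animal per array, per the labels' protocols. The deposited values were on a log2 scale, judged from their range of 2.48 to 14.78, and for the authors' summary method, normalization and log base the sources used here give nothing. Gene symbols came from the annotation of the array platform, where 34945 of 45101 had 1 gene symbol, 932 had several and 9160 none, beside 64 control probe sets.

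A linear model holding a mean for each group was fitted over 13434 tested genes and 18 arrays (12 residual degrees of freedom) with limma 3.58.1 in R 4.3.3, two-sided, with Benjamini-Hochberg adjustment within each of 7 comparisons and a threshold of 0.05. The procedure was tested on simulated data. An exact permutation test of 3 against 3 arrays cannot give a p under 0.1 and was not used. With 3 arrays a group, the number of arrays limits the precision. Signals of different probe sets were not compared, and the 95% intervals come from the limma fit. Promoter windows came from RefSeq sequences.

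The genes and lists were chosen with earlier results of these data known. Genes named in a comparison were those called, those whose arrays did not overlap (up to the 8 with the smallest p), the largest and smallest difference, and Rrm2. Values array by array were given for the 2 genes of each role with the widest range of group means (1 for cyclin E), and Pcna. From other lists, called genes and the 3 with the smallest p for corn oil minus feed were named. Further genes named with a single value or a range were chosen after their values were seen.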

Additional observations from a re-analysis of the deposited data

Results flagged for a closer look

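No replication gene stood out by a test between the effects of NDA and benzofuran, each taken against its own control, but 3 genes of the neighbouring lists did, in limma with adjustment over 13434 genes. Mthfd1, the folate enzyme, differed by -0.77 (NDA effect minus benzofuran effect, SE 0.14, adjusted p = 0.0163), from effects of 0.13 and 0.90, and by -0.81 without benzofuran animal 10 (adjusted p = 0.0101). Mki67 differed by 1.65 (SE 0.30, adjusted p = 0.0208), from effects of 0.69 and -0.96, and by 1.64 without that animal (adjusted p = 0.0372). Racgap1 differed by 0.76 (SE 0.14, adjusted p = 0.0247), from effects of 0.54 and -0.21, and by 0.80 without that animal (adjusted p = 0.0131). The corn oil and feed controls differ by -0.38, 1.03 and 0.55 for these genes, and that distance enters each value.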

How the results depend on the processing

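No paired analysis was possible because no animal number is shared between groups. The counts of called replication genes and their medians in the 7 comparisons were also taken under alternatives other than leaving an array out. Of these values, 116 stayed close to those reported and 10 moved. In NDA minus feed the count of called replication genes was 0. It became 1 with no filter (Uhrf1, beside 188 called of 18193 genes) or with only the arrays of the groups compared (Tk1, beside 283 of 13434). It was 4 with array weights (Mcm5, Gins1, Rrm2 and Tk1) or with the actin 3′ minus 5′ difference as a covariate. Array weights also gave 2 called for NEDD minus feed (Fen1 and Ccne1, of 521 over all genes), 3 lower for benzofuran minus corn oil (Mcm5, Mcm6 and Cdt1, of 1149), 5 for NDA minus NEDD (Gmnn, Gins1, Rfc3 and Rfc5 higher, Fen1 lower, of 1813) and 4 for the difference of the NDA and benzofuran effects (Mcm5, Mcm6, Rrm2 and Tk1, of 158). With the actin covariate, NDA minus NEDD had 2 (Gins1 and Rfc3, of 625) and the NEDD minus feed median was 0.17. The covariate fit held benzofuran 10, the array with the highest actin value (0.91), and was not repeated without that array. The counts under array weights and the covariate are of 31 replication genes, and those over all genes are of 13434. A fit without benzofuran 10 in the comparisons that do not use it was an alternative chosen after seeing the data. It gave 1 for NDA minus feed (Tk1, of 311 over all genes) and 2 for NDA minus NEDD (Gins1 and Rfc3, of 584). Array weights and the covariate also raised the count over all genes, for NDA minus feed from 184 to 755 and 364. The cause was not tested.

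When each array of the groups compared was left out in turn, the count ranged from 0 to 2 for benzofuran minus corn oil, from 0 to 1 for NDA minus feed and for the difference of effects, and was 0 to 0 for the other comparisons. The medians ranged from 0.16 to 0.23 for corn oil minus feed, 0.10 to 0.17 for NDA, 0.00053 to 0.09 for NEDD and 0.02 to 0.06 for PCNB minus feed, -0.15 to 0.04 for benzofuran minus corn oil, -0.02 to 0.08 for NDA minus NEDD and 0.11 to 0.29 for the difference of effects. Of the values for single named genes, 21 passed the threshold under an alternative and 22 moved by more than the spread between arrays.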
